A study of Mus musculus with 12 samples.

Results

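The collagen genes of the mouse cortex were examined as a family. Members were all genes of the deposited count table whose symbol has the form Col, a number, the letter a and a number, which picked 44 of 33024 genes, and all 44 were among the 16059 genes with enough counts to be tested. Each collagen is a rope of alpha chains wound around one another, and the symbol names the collagen type and the chain. Fibrillar types I, III and V make tissue fibrils, type IV makes the sheet of the basement membrane, type VI makes beaded filaments, and the remaining types coat fibrils, span cell membranes or form smaller networks. In the brain, collagen is sparse within the neuropil and is best known from the meninges and the basement membrane of blood vessels, although neurons make several non-fibrillar types.

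Wild-type C57BL/6 mice had a choice of water and 20% (v/v) ethanol for 12 h each night over 35 days from postnatal day 30, a binge-like paradigm called drinking in the dark, or had water alone. Cortex RNA was sequenced from the arm that then abstained for 14 days and underwent behavioural tests. The water-drinking controls (labelled Control, given vehicle) numbered 7 and the ethanol-administered mice (labelled EtOH) numbered 5. The question for the collagen genes was which of them differed between drinkers and controls after abstinence. Each library was taken as 1 mouse, since the labels give only a group and a number.

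Libraries held between 31768076 and 42183029 counted reads, so that 3 counts, used as the detection floor, stood for 0.0711 to 0.0944 CPM (a gene's reads scaled to 1000000 reads of a TMM-adjusted library). Markers of cortical projection neurons summed to 2302 to 2789 CPM in the controls and to 2218 to 2780 CPM in the ethanol-administered mice, so the labelled tissue was present in both groups. Markers of regions beside the cortex differed, however. All 10 striatum markers were lower in the ethanol-administered mice (summed 160 to 206 CPM, against 767 to 2037 in the controls) and all 8 hippocampus markers were higher (125 to 166 CPM, against 29.6 to 36.5). Of 6 tested choroid plexus markers, 4 were higher by edgeR (5 of 7 by DESeq2 and 1 of 6 by limma voom), and the summed list ran from 12.2 to 990 CPM among the ethanol-administered mice, against 7.79 to 22.7 in the controls. These differences run alongside every collagen result below. In bulk tissue, fewer cells of a type and less RNA per cell cannot be told apart.

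The members shared an exon of fixed size, which the choice by symbol did not use. In the Gencode M39 annotation of GRCm39, 469 of their 1999 coding exons (23.5%) were exactly 54 bases long, against 853 of 195911 (0.435%) in 21726 other protein-coding genes. A stretch of 54 bases holds 18 codons, or 6 Gly-X-Y triplets, the repeat that lets the chains wind together, and 452 of the 469 exons (96.4%) carried a glycine codon at the same place in all 6 triplets. The share was 47.1% of coding exons over the 11 fibrillar genes, 25.2% over the fibril-associated genes, 4.05% over the basement membrane genes and 0 over the short chain genes. Of the 44 members, 40 had at least 1 such exon, the exceptions being Col8a1, Col8a2, Col10a1 and Col26a1. The first exon of this size is printed below for each of the 9 members that had one and differed between the groups, to show the repeat they have in common. Positions are on GRCm39, bases run 5′ to 3′ on the coding strand, and capitals mark in-frame glycine codons (GGN).
Col5a1 (chr2:27855263-27855316, plus strand): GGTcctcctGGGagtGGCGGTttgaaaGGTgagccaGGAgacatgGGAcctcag
Col5a2 (chr1:45474052-45474105, minus strand): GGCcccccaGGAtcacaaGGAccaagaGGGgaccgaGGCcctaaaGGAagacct
Col4a5 (chrX:140358984-140359037, plus strand): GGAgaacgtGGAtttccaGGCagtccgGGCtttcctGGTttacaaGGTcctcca
Col6a1 (chr10:76555457-76555510, minus strand): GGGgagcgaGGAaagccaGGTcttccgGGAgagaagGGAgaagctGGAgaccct
Col12a1 (chr9:79521631-79521684, minus strand): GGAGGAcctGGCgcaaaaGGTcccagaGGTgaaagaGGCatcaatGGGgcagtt
Col19a1 (chr1:24500557-24500610, minus strand): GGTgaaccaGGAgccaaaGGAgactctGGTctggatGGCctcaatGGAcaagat
Col23a1 (chr11:51453827-51453880, plus strand): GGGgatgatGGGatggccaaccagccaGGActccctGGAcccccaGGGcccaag
Col17a1 (chr19:47652242-47652295, minus strand): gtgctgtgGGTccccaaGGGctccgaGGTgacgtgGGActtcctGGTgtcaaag
Col28a1 (chr6:8166662-8166715, minus strand): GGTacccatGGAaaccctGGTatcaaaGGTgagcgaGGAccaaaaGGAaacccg
The exons of Col23a1 and Col17a1 held 5 glycine codons in register, and those of the other members printed held 6. The exon of Col17a1 starts inside a codon, whereas the others start with a whole one.

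Levels were compared between genes only after division by the length of annotated exon. The highest member was Col6a1, a chain of the type VI beaded filament, at 16.2 CPM per kb of exon over all mice. Next came Col4a2 and Col4a1, the chains of the common basement membrane network, at 9.64 and 7.10 CPM per kb. Col5a1, a chain of the fibrillar type V that starts and limits type I fibrils, stood at 4.38 CPM per kb, and Col25a1, a transmembrane collagen made by neurons, at 3.71. With the longest transcript as the length, Col25a1 stood at 7.21 and passed Col5a1, at 4.52. At the other end of the order, Col6a6 stood at 0.0561 CPM per kb. Neighbours in this order often did not differ beyond the spread over mice, and the order depended on the group. Col6a1 stood at 20.2 CPM per kb in the controls and at 10.5 in the ethanol-administered mice, where it was close to Col4a2, at 9.68 and 9.58. Col5a1 stood at 2.36 CPM per kb in the controls and at 7.21 in the ethanol-administered mice.

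**Figure D1:**
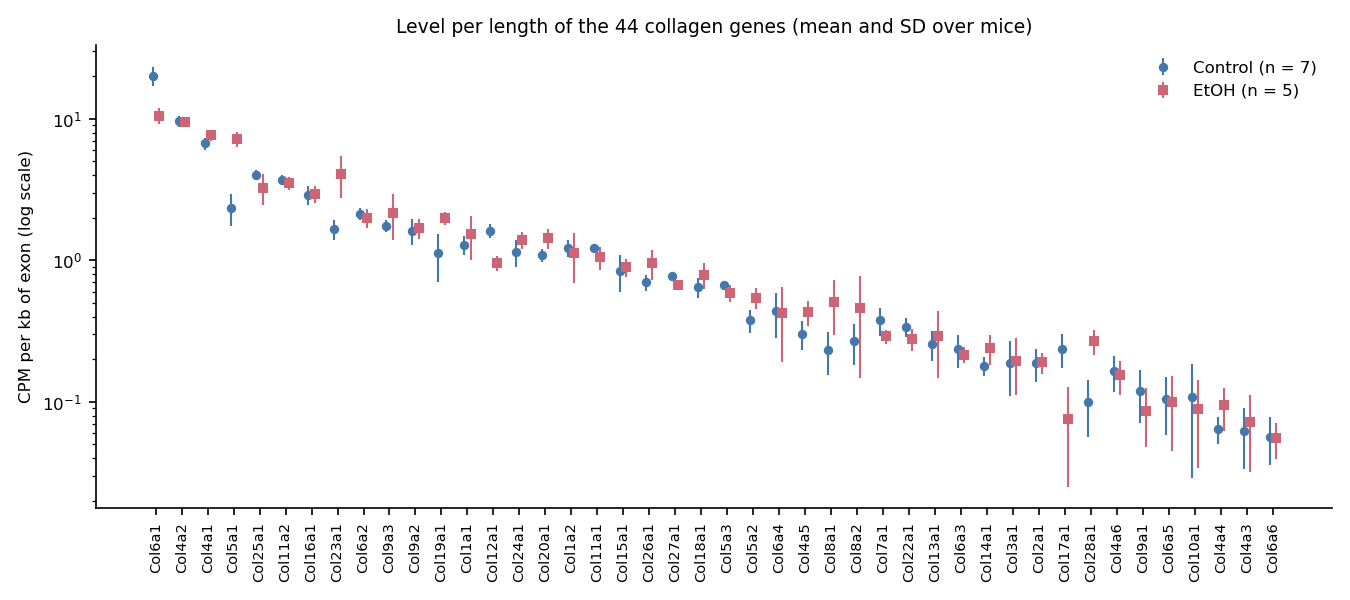
Level of the 44 collagen genes in CPM per kb of annotated exon (log scale), with mean and SD over 7 Control mice (circles) and 5 EtOH mice (squares), ordered by the mean over all mice. Col6a1 leads at 16.2 and Col6a6 ends the order at 0.0561; the groups stand clearly apart for Col5a1 and Col6a1.

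The summed collagen level was nearly the same in both groups, 567 ± 43.0 CPM in the controls (SD, n = 7) and 572 ± 32.3 CPM in the ethanol-administered mice (SD, n = 5). Beneath that sum single genes moved in opposite directions. Of the 44 members, 10 (22.7%) were called different, which required a log2 fold change of more than 0.5 in either direction and an adjusted p under 0.05 in edgeR's quasi-likelihood test, whereas 8.29% of all genes tested were called. Higher in the ethanol-administered mice were 7 members (15.9%, against 4.2% of all genes), namely Col5a1, Col5a2, Col4a5, Col8a1, Col19a1, Col23a1 and Col28a1. Lower were 3 members (6.82%, against 4.09% of all genes), namely Col6a1, Col12a1 and Col17a1. The median log2 fold change was 0.04 over the collagen genes and 7.2e-05 over all genes. At an adjusted p under 0.05 with no minimum fold change, 12 members passed (27.3%, against 23.7% of all genes), a share close to the background. The groups did not overlap for 6 members (13.6%, against 9.81% of all genes), of which Col5a1, Col23a1 and Col28a1 lay higher in every ethanol-administered mouse (4.84% of all genes did) and Col6a1, Col12a1 and Col17a1 lay lower (4.96%). The 34 members not called had log2 fold changes from -0.47 to 0.78, 17 above and 17 below 0.

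**Figure D2:**
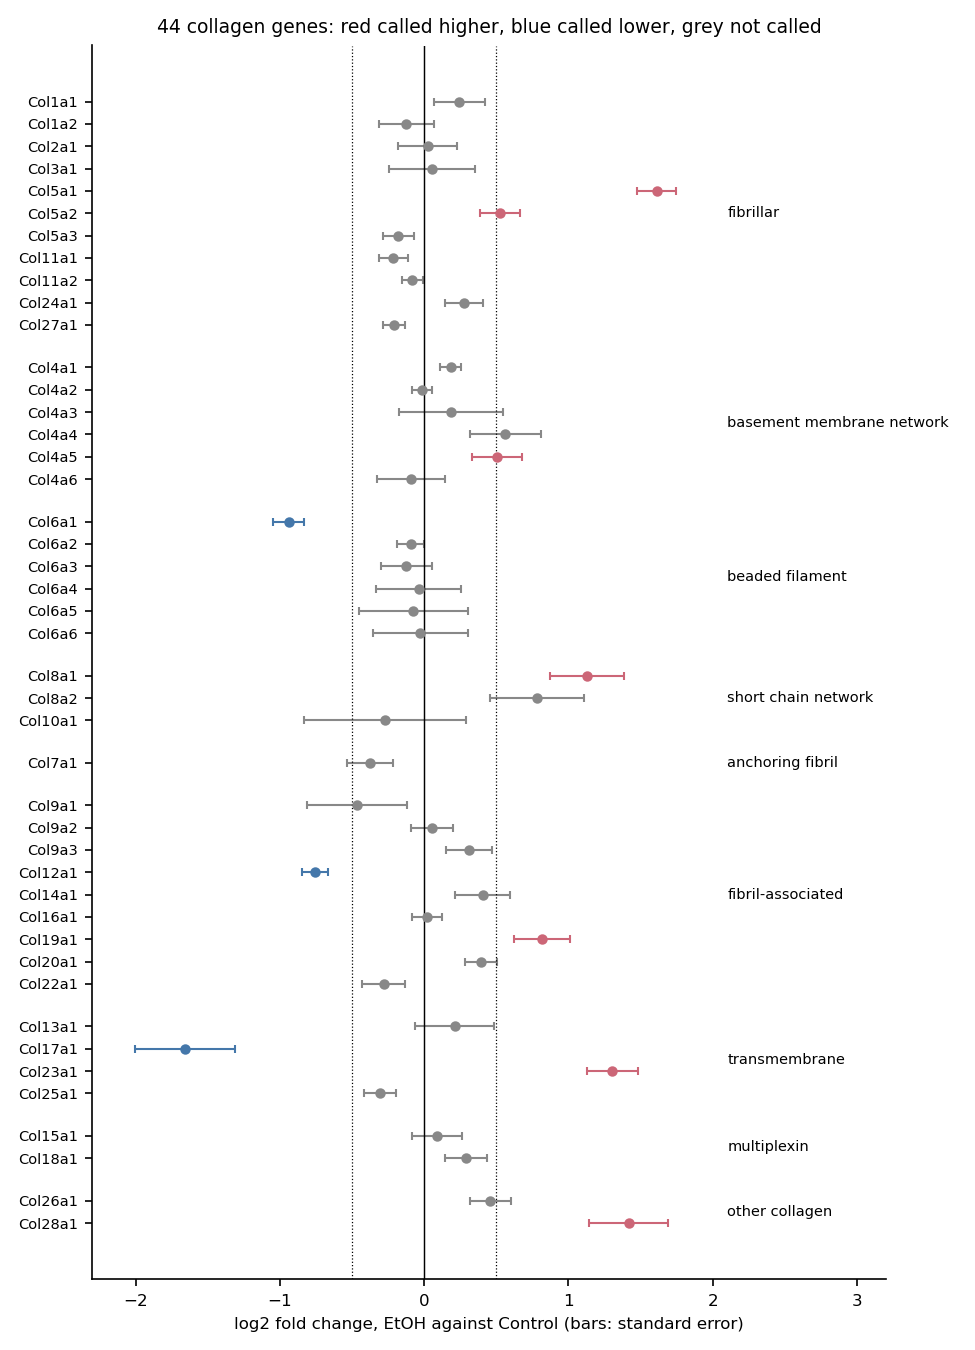
Log2 fold change of the 44 collagen genes in EtOH against Control mice, with bars for the standard error and dotted lines at 0.5 in either direction, arranged by role. Of the members, 7 called higher reach up to 1.61 (Col5a1) and 3 called lower reach down to -1.66 (Col17a1), while most others lie close to 0.

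Among the 11 fibrillar genes, the type V chains Col5a1 and Col5a2 were called higher. The third chain of that type, Col5a3, and the chains of types I and III did not pass the test. Col5a1 (chromosome 2, 27776397 to 27929526, plus strand) encodes the alpha 1 chain of type V collagen, which is built into type I fibrils at their start. Its level ran from 14.6 to 30.1 CPM in the controls, with a median of 18.7, and was 57.7, 72.5, 53.0, 63.3 and 67.9 CPM in ethanol-administered mice 1 to 5. Every ethanol-administered mouse lay well above the highest control. The means were 20.6 ± 5.26 (SD, n = 7) and 62.9 ± 7.76 CPM (SD, n = 5), giving a log2 fold change of 1.61 (SE 0.14, edgeR adjusted p = 2.44e-07). This was the smallest p of the family. Exons of the genes 2810430I11Rik and Gm13372, on the other strand, overlap those of Col5a1, and reads of such genes cannot be told apart unless the counting used the strand, which is not stated.

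Col5a2 (chromosome 1, 45412554 to 45542442, minus strand) encodes the chain that joins alpha 1 in type V. Control levels ran from 3.13 to 5.57 CPM, with a median of 4.02, and ethanol-administered mice had 7.42, 5.57, 6.98, 5.10 and 5.38 CPM. The groups overlapped, with 2 ethanol-administered mice above every control. Means of 4.22 ± 0.783 (SD, n = 7) and 6.09 ± 1.04 CPM (SD, n = 5) gave a log2 fold change of 0.53 (SE 0.14, edgeR adjusted p = 0.0113). The call lay at the edge of the fold threshold. It was lost without Control 4 (0.47), without EtOH 1 (0.45) or without EtOH 3 (0.47). The chains of types I and III did not pass the test: the log2 fold changes of Col1a1, Col1a2 and Col3a1 were 0.24, -0.12 and 0.05. Col5a3 had -0.18 (adjusted p = 0.245 by edgeR), with 3 ethanol-administered mice below every control. Col2a1, Col11a1, Col11a2, Col24a1 and Col27a1 had values from -0.21 to 0.28, none of which passed either.

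**Figure D3:**
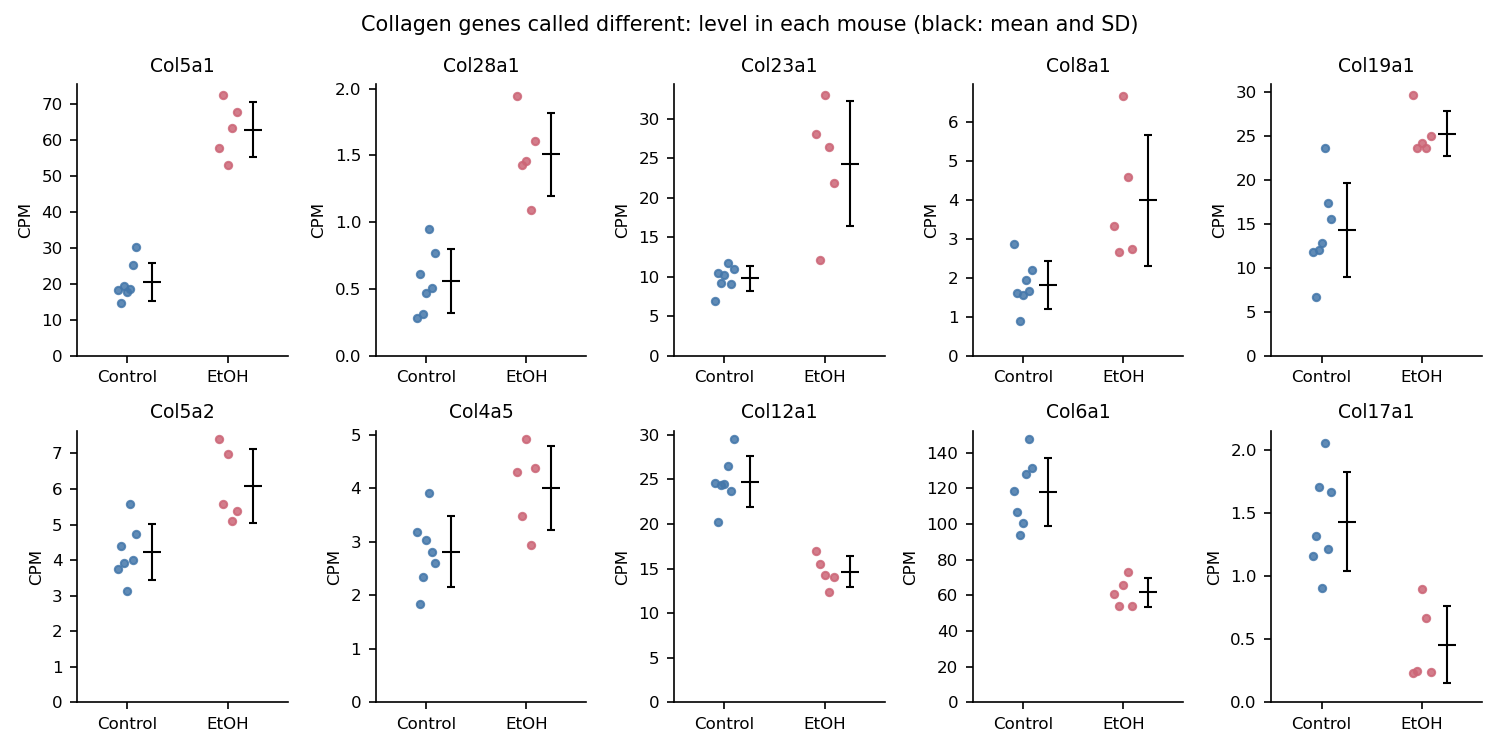
CPM of the 10 collagen genes called different in each of 7 Control and 5 EtOH mice, with black bars for mean and SD, each panel on its own axis from 0. All EtOH points lie above every Control point for Col5a1, Col28a1 and Col23a1 and below every Control point for Col12a1, Col6a1 and Col17a1, while the other 4 genes overlap.

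In the basement membrane network, the chains that form the common sheet around vessels did not pass the test. Col4a1 had 50.1 ± 4.91 (SD, n = 7) and 57.0 ± 5.30 CPM (SD, n = 5), giving a log2 fold change of 0.18 (adjusted p = 0.0800 by edgeR), and Col4a2 had 69.5 ± 6.24 and 68.8 ± 5.68 CPM. Col4a5 (chromosome X, 140258354 to 140472231, plus strand), a chain of the more restricted networks best known from the kidney filter, was called higher. It ran from 1.84 to 3.91 CPM in the controls, with a median of 2.81, and stood at 4.31, 3.48, 4.92, 2.94 and 4.38 CPM in the ethanol-administered mice. The groups overlapped, with 3 ethanol-administered mice above every control. The means of 2.82 ± 0.661 (SD, n = 7) and 4.01 ± 0.785 CPM (SD, n = 5) gave a log2 fold change of 0.51 (SE 0.17, edgeR adjusted p = 0.0413). This was the least certain call of the family, kept in 4 of the 12 fits that left out 1 mouse. It was lost without Control 2, 3, 4, 6 or 7 and without EtOH 1, 3 or 5, with log2 fold changes between 0.42 and 0.52 in those fits. Its head to head neighbour Col4a6 had a log2 fold change of -0.09, and Col4a3 and Col4a4, which join Col4a5 in a trimer, had 0.19 and 0.56. None of these other chains passed the test.

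The beaded filament genes held the largest difference in CPM between the group means. Col6a1 (chromosome 10, 76543440 to 76562283, minus strand) encodes a chain needed for type VI filaments, which anchor cells to the matrix around them. Controls ran from 93.9 to 148 CPM with a median of 119, whereas ethanol-administered mice had 61, 54.3, 66.1, 72.9 and 54.1 CPM. Every ethanol-administered mouse lay below the lowest control. The mean was 118 ± 19.0 CPM in the controls (SD, n = 7) and 61.7 ± 8.04 CPM in the ethanol-administered mice (SD, n = 5), giving a log2 fold change of -0.94 (SE 0.11, edgeR adjusted p = 6.92e-06). The chains that assemble with it showed no such difference: Col6a2 had 23.4 ± 2.26 (SD, n = 7) and 21.9 ± 3.36 CPM (SD, n = 5), with a log2 fold change of -0.09, and Col6a3 had -0.12. Col6a4, Col6a5 and Col6a6, a cluster of related chains on chromosome 9, had values from -0.08 to -0.03. No gene of type VI other than Col6a1 passed the test.

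Among the 9 fibril-associated genes, whose products decorate the surface of fibrils, 1 was lower and 1 was higher. Col12a1 (chromosome 9, 79506268 to 79626135, minus strand), which binds type I fibrils, ran from 20.2 to 29.6 CPM in the controls, with a median of 24.5. It stood at 17.0, 15.5, 14.3, 12.4 and 14 CPM in the ethanol-administered mice, all of them below the lowest control. The means of 24.8 ± 2.84 (SD, n = 7) and 14.6 ± 1.73 CPM (SD, n = 5) gave a log2 fold change of -0.76 (SE 0.09, edgeR adjusted p = 1.47e-05). Exons of 2 genes on the other strand overlap those of Col12a1.

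Col19a1 (chromosome 1, 24296772 to 24627011, minus strand), a type made by neurons, among them interneurons, varied widely in the controls. It ran there from 6.71 to 23.7 CPM, with a median of 12.8, and was 29.7, 23.6, 24.2, 23.7 and 25 CPM in the ethanol-administered mice. The ethanol-administered mice lay close together at the top of the control range or above it, with 3 above every control. The mean was 14.3 ± 5.33 CPM in the controls (SD, n = 7) and 25.3 ± 2.55 CPM in the ethanol-administered mice (SD, n = 5), giving a log2 fold change of 0.82 (SE 0.20, edgeR adjusted p = 0.00602). An opposite-strand gene overlaps its exons as well. Col20a1 passed the test with a fold under the threshold, at 5.94 ± 0.594 (SD, n = 7) and 7.80 ± 1.25 CPM (SD, n = 5) and a log2 fold change of 0.39 (adjusted p = 0.0157 by edgeR). The other 6 fibril-associated genes, Col9a1, Col9a2, Col9a3, Col14a1, Col16a1 and Col22a1, had log2 fold changes from -0.47 to 0.40 and did not pass.

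The 4 transmembrane collagens differed most among themselves. Col23a1 (chromosome 11, 51180566 to 51474745, plus strand), whose outer part can be shed from the cell, ran from 6.92 to 11.8 CPM in the controls with a median of 10.3. In the ethanol-administered mice it was 28.1, 12.1, 33.0, 26.4 and 21.9 CPM. All 5 lay above every control, mouse 2 only just. Means of 9.83 ± 1.59 (SD, n = 7) and 24.3 ± 7.91 CPM (SD, n = 5) gave a log2 fold change of 1.30 (SE 0.18, edgeR adjusted p = 5.00e-05). Col17a1 (chromosome 19, 47634783 to 47680533, minus strand), a component of the hemidesmosomes that fasten epithelial cells, went the other way at a low level. It ran from 0.906 to 2.05 CPM in the controls, with a median of 1.32, and was 0.232, 0.249, 0.894, 0.668 and 0.243 CPM in the ethanol-administered mice. No ethanol-administered mouse reached the lowest control, although mouse 3 came close to it. The means were 1.43 ± 0.393 (SD, n = 7) and 0.457 ± 0.306 CPM (SD, n = 5), giving a log2 fold change of -1.66 (SE 0.34, edgeR adjusted p = 0.00216). Col25a1 had 52.6 ± 3.99 (SD, n = 7) and 42.5 ± 10.4 CPM (SD, n = 5), giving a log2 fold change of -0.31 that did not pass (edgeR adjusted p = 0.0562). Col13a1 had 0.21 and did not pass.

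Of the short chain network genes, Col8a1 was called higher. Col8a1 (chromosome 16, 57444621 to 57575100, minus strand) encodes a chain of the hexagonal network found under vascular and corneal endothelium. Controls ran from 0.884 to 2.88 CPM, with a median of 1.66, and ethanol-administered mice had 3.34, 2.68, 6.68, 4.58 and 2.74 CPM. The groups overlapped, with 3 ethanol-administered mice above every control. The means of 1.83 ± 0.620 (SD, n = 7) and 4.00 ± 1.68 CPM (SD, n = 5) gave a log2 fold change of 1.13 (SE 0.26, edgeR adjusted p = 0.00417). The exons of Col8a1 are overlapped by those of an opposite-strand gene. Its partner chain Col8a2 had a log2 fold change of 0.78 (adjusted p = 0.0916 by edgeR), which ran from 0.30 to 0.96 when 1 mouse was left out. EtOH 3 held 5.01 CPM of Col8a2, against 0.996 to 2.27 CPM in the other ethanol-administered mice. Col10a1, at under 1 CPM, had -0.27 and did not pass.

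Of the remaining members, Col28a1 (chromosome 6, 7997102 to 8192617, minus strand), known from peripheral nerve, was low in every mouse. It ran from 0.282 to 0.953 CPM in the controls, with a median of 0.510, and was 1.95, 1.43, 1.46, 1.09 and 1.61 CPM in the ethanol-administered mice. Every ethanol-administered mouse lay above the highest control. The means were 0.559 ± 0.241 (SD, n = 7) and 1.51 ± 0.310 CPM (SD, n = 5), giving a log2 fold change of 1.42 (SE 0.27, edgeR adjusted p = 0.00118). Col26a1 passed the test with a fold under the threshold, at 5.71 ± 0.716 (SD, n = 7) and 7.86 ± 1.89 CPM (SD, n = 5) and a log2 fold change of 0.46 (adjusted p = 0.0260 by edgeR). Col7a1, the anchoring fibril collagen, had -0.38, and Col15a1 and Col18a1, the multiplexins of basement membranes, had 0.09 and 0.29. These 3 did not pass.

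Chains that assemble into the same trimer did not always move together. The ratio of Col5a1 to Col5a2 was 4.97 ± 1.25 in the controls (SD, n = 7) and 10.7 ± 2.74 in the ethanol-administered mice (SD, n = 5), and the ratio of Col6a1 to Col6a2 was 5.06 ± 0.652 and 2.85 ± 0.368. For both ratios the groups did not overlap. Type I collagen, neither chain of which was called, had a Col1a1 to Col1a2 ratio of 0.549 ± 0.0527 in the controls (SD, n = 7) and 0.733 ± 0.143 in the ethanol-administered mice (SD, n = 5), again without overlap. The Col4a1 to Col4a2 ratio, at 0.724 ± 0.0738 and 0.828 ± 0.0202, and the Col8a1 to Col8a2 ratio, at 1.41 ± 0.516 and 1.96 ± 0.575, did overlap. These pairs were picked after the values had been seen and are given without a test.

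**Figure D4:**
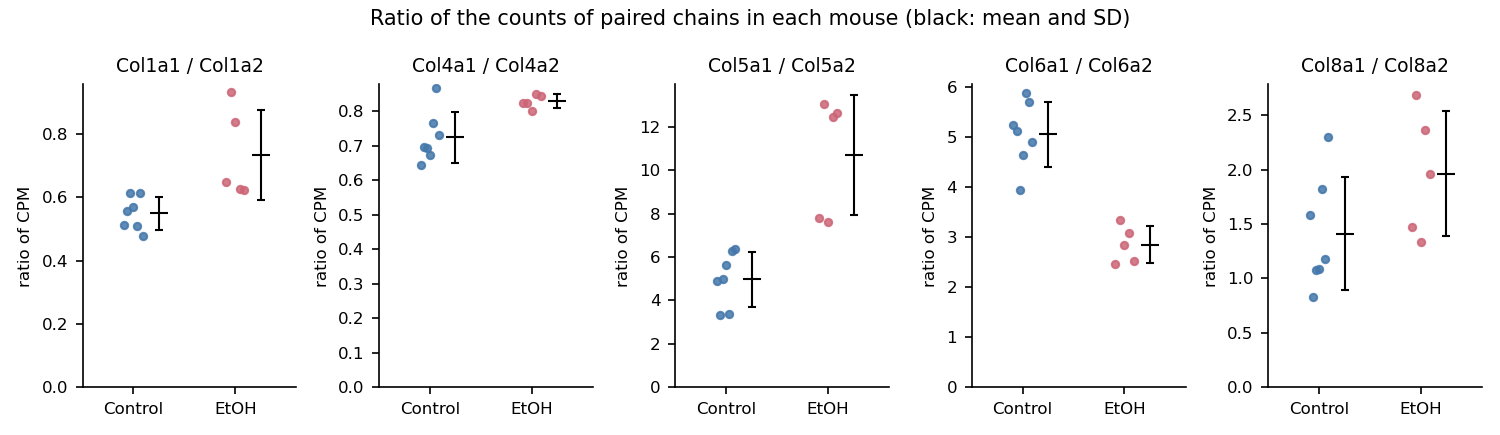
Ratio of the CPM of paired chains in each of 7 Control and 5 EtOH mice, with black bars for mean and SD, each axis from 0. The Col5a1 to Col5a2 and Col1a1 to Col1a2 ratios lie higher in every EtOH mouse, and the Col6a1 to Col6a2 ratio lies lower (5.06 against 2.85 on average).

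Across the 7 control mice, 11 pairs of collagen genes were examined. The pairs share a trimer or lie side by side, except Col1a1 with Col3a1, chains of types I and III on chromosomes 11 and 1. The levels of each pair were correlated on the log2 scale. The strongest was Col1a1 with Col1a2 (r = 0.81, exact permutation p = 0.0242, adjusted over the 11 pairs 0.266; rho = 0.79, exact permutation p = 0.0480). It stayed at 0.83 without the 2 mice farthest from the median. In all, 1 of 11 pairs had an unadjusted p under 0.05 and 0 an adjusted one, and r ran from -0.45 to 0.81 (exact permutation tests).

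Genes that make, bind and remodel collagen were examined beside the members. Of 67 listed genes, 62 were tested and 4 (6.45%) were called, all higher, against 8.29% of all genes, and 11 (17.7%) had an adjusted p under 0.05, against 23.7%. Both shares lay near the background. P3h2, which hydroxylates proline in collagen chains, had 1.55 ± 0.471 (SD, n = 7) and 2.62 ± 0.445 CPM (SD, n = 5), giving a log2 fold change of 0.75 (adjusted p = 0.0114 by edgeR). The procollagen N-proteinases Adamts2 and Adamts14, which trim the ends of fibrillar chains, had log2 fold changes of 0.58 and 1.70 (edgeR adjusted p = 0.00171 and 0.00323). Adamts14 was low, from 0.125 to 0.446 CPM in the controls and from 0.373 to 1.70 CPM in the ethanol-administered mice. Lama4, a laminin chain of vessel basement membranes, had 7.97 ± 0.995 (SD, n = 7) and 11.7 ± 1.30 CPM (SD, n = 5), giving a log2 fold change of 0.55 (adjusted p = 0.000827 by edgeR), and every ethanol-administered mouse lay above the highest control. Of the 9 collagen receptors tested by edgeR and limma voom, and the 11 fitted by DESeq2, 0 were called. In edgeR 2 had an unadjusted p under 0.05. In DESeq2 1 had an adjusted p under 0.05 with a smaller fold, and 3 had an unadjusted p under 0.05. Of the 10 tested genes for collagen degradation and its inhibitors (12 in DESeq2), 0 were called by any of these tools. In edgeR, however, 2 had an adjusted p under 0.05 with a smaller fold and 4 an unadjusted p under 0.05.

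The fibroblasts of the meninges and vessels, the main collagen-making cells of the brain's coverings, had 1 of 10 markers called, Dcn, which was higher, and the summed list ran from 69.8 to 112 CPM in the controls and from 54 to 167 CPM in the ethanol-administered mice. Of 7 tested pericyte and smooth muscle markers (8 in DESeq2), 0 were called by edgeR, DESeq2 or limma voom. In each tool 0 had an unadjusted p under 0.05 (summed 200 to 228 and 202 to 221 CPM). Among 8 endothelial markers, 1 was lower (231 to 258 and 222 to 243 CPM). All 6 oligodendrocyte markers had an adjusted p under 0.05 and lower values (log2 fold changes from -0.52 to -0.29), and 2 of them were called. Of the 5 genes placed on the oligodendrocyte precursor list, Bcas1 was called lower, while Pdgfra and Cspg4 had an adjusted p under 0.05 and higher values (0.23 and 0.37). Of 6 thalamus markers, 2 were called higher and 1 more had an adjusted p under 0.05 (Rgs16, 0.37). Of 8 projection neuron markers, Fezf2 was called higher (0.60), and Cux2 (0.31), Neurod6 (0.26) and, on the lower side, Tbr1 (-0.40) had an adjusted p under 0.05. The choroid plexus, a folded epithelium in the ventricles whose signature transcript is Ttr, was uneven. Ttr ran from 3.13 to 13.1 CPM in the controls and was 97.8, 8.99, 911, 241 and 2.16 CPM in ethanol-administered mice 1 to 5. Mice 3, 4 and 1 stood above all others in Ttr. Kl, another marker of the list, was above every control (highest 3.71 CPM) in all 5, at 14.6, 8.84, 47.9, 19.5 and 8.09 CPM. In mice 2 and 5 the summed list, at 21.1 and 12.2 CPM, nevertheless lay within the control range of 7.79 to 22.7 CPM. Mice 3, 4 and 1 held the highest Col8a1 of all, and mouse 3 held the highest Col8a2 (5.01 CPM) and Col9a3 (16.0 CPM).

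**Figure D5:**
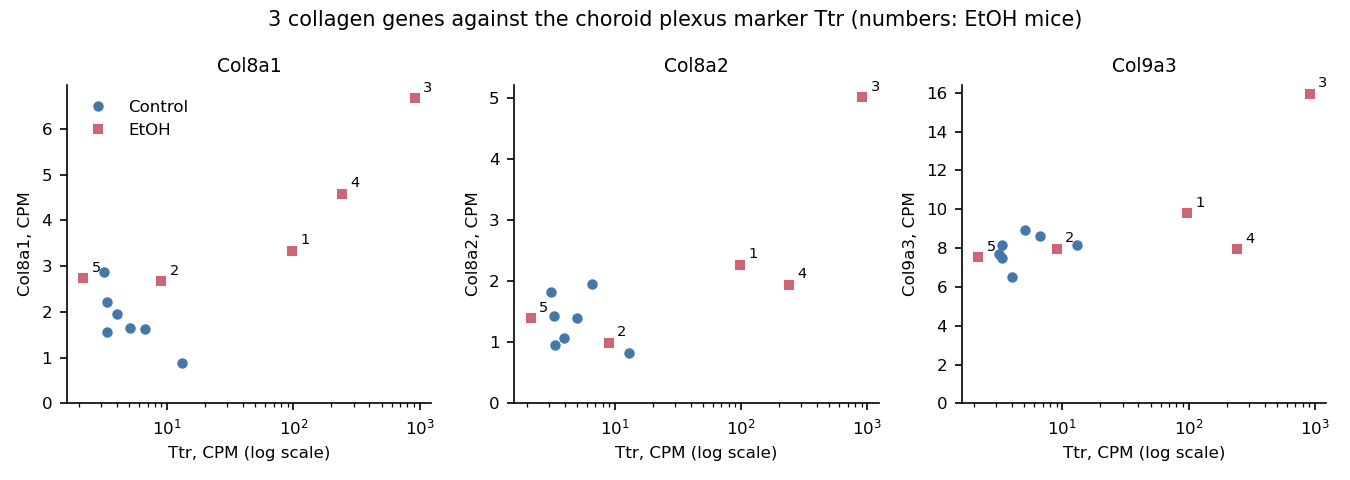
CPM of Col8a1, Col8a2 and Col9a3 against CPM of the choroid plexus marker Ttr (log scale) in 7 Control mice (circles) and 5 numbered EtOH mice (squares). The 3 EtOH mice above 90 CPM of Ttr hold the highest Col8a1, and mouse 3 (Ttr 911 CPM) is the highest in each panel.

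Without those 3 mice, 5 members were higher and 4 lower, while 5.2% of all genes were called. This alternative was chosen after the data had been seen and leaves ethanol-administered mice 2 and 5. Their Kl was still above the controls, while their summed choroid plexus list lay within the control range. Col5a1 (1.77), Col6a1 (-1.13), Col12a1 (-0.75), Col17a1 (-2.53) and Col28a1 (1.42) were still called, as was Col23a1, whose log2 fold change fell from 1.30 to 0.78 (edgeR adjusted p = 0.0223). Col8a1 went from 1.13 to 0.56 and was no longer called (edgeR adjusted p = 0.279), and Col19a1 (0.76), Col4a5 (0.47) and Col5a2 (0.37) were lost as well (edgeR adjusted p = 0.112, 0.231 and 0.243). Col20a1 (0.59), Col26a1 (0.69) and, on the lower side, Col25a1 (-0.62) were then called. The part of choroid plexus RNA in the differences of Col8a1 and Col23a1 was not tested.

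The striatum and hippocampus lists separated the groups completely, so within this design their part cannot be told apart from that of ethanol. Within the 7 controls alone, the scores of the striatum, hippocampus and fibroblast lists were set against each called member, 30 relations in all. The strongest was Col12a1 with the striatum score (r = -0.94, exact permutation p = 0.00298, adjusted over the 30 relations 0.0893; rho = -0.89, exact permutation p = 0.0123), with r = -0.84 without the 2 mice farthest from the median. In all, 1 of 30 relations had an unadjusted p under 0.05 and 0 an adjusted one (exact permutation tests). Over the 10 called members, r ran from -0.94 to -0.13 with the striatum score, from 0.02 to 0.73 with the hippocampus score and from -0.62 to 0.39 with the fibroblast score. Without the 2 mice farthest from the median of the score, both signs occurred for every list. There r ran from -0.84 to 0.77 (striatum), from -0.76 to 0.68 (hippocampus) and from -0.54 to 0.71 (fibroblast). The relations with a list share its score and the same 7 mice, so a sign common to a list is a description.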

How the data were processed

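The authors had total RNA of frozen cortex extracted and sequenced by BGI Genomics, checked reads with FastQC 0.11.9, aligned them to GRCm39 with STAR and counted them on genes with featureCounts; strand and multi-mapping settings are not given in the sources used here. The deposited table was read as a table of estimated counts per gene symbol without normalization, because 61 symbols (0 members) held non-whole values, for a reason not stated. These were rounded. Every column matched a mouse by name (0 left out). Genes were filtered with filterByExpr, scaled by TMM and compared by the quasi-likelihood test of edgeR, with p-values of 16059 genes adjusted after Benjamini and Hochberg (R 4.3.3, edgeR 4.0.16, limma 3.58.1). DESeq2, which the authors used, was run here in version 1.42.0 as an alternative, as were limma voom, other scalings, filters, fold minimums, rounding, a replicate block and leaving out each mouse. Calls needed a log2 fold change of more than 0.5 in either direction and an adjusted p under 0.05. The SE is the log2 fold change divided by the square root of F. Values of CPM use TMM-scaled totals, log2 CPM a prior count of 2. Exons, positions and the 54-base exon sequences came from the Gencode M39 annotation and GRCm39, in which all 44 symbols matched. The authors counted on an earlier Gencode release, so the overlaps and exon lengths given here need not be those behind the counts.

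Per-mouse values are given for called members, group means for members with an adjusted p under 0.05 and a smaller fold and for the most abundant per length, and log2 fold changes for the rest. Members and gene lists were chosen with earlier results of these data known. On simulated counts in which 200 genes differed by 1 on the log2 scale between 7 and 5 mice, edgeR recovered 183 over 15898 genes with 9 false calls, DESeq2 190 over 16059 genes with 12, and limma voom 183 over 15898 genes with 7.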

Additional observations from a re-analysis of the deposited data

Results flagged for a closer look

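Within each group, the highest and lowest mouse of each of the 44 collagen genes, and of the summed collagen level, was compared with the others by Dixon's gap test (on log2 CPM for the genes and CPM for the sum), over 90 groups of values. A mouse stood apart in 5 of them, where chance alone would give about 4.5. Col19a1 was highest in EtOH 1, at 4.90 with the next mouse at 4.65, and Col4a1 was highest in EtOH 4, at 6.05 with the next at 5.80. Col11a2 and Col7a1 were lowest in EtOH 3, at 4.42 with the next at 4.73 and at 1.31 with the next at 1.64. Col6a6 was lowest in Control 2, at -2.46 with the next at -0.75, a gene with few reads in every mouse.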

How the results depend on the processing

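The 10 calls were the same with DESeq2, limma voom, relative log expression or upper quartile factors, every gene with at least 1 count, and truncated counts. In these fits 6.03% to 8.32% of all genes were called. With at least 10 counts in every mouse, 37 members were tested and 6 were higher and 2 lower, Col17a1 and Col28a1 not being tested. At this setting 7.57% of all genes were called. With no minimum fold change, 9 members were higher and 3 lower, and 10 pathway genes were higher and 1 lower (17.7% of those tested, against 23.7% of all genes at this setting). With a minimum log2 fold change of 1, 4 members were higher, 1 was lower and 1 pathway gene was higher, while 3.26% of all genes were called. Leaving out each mouse in turn gave 5 to 8 members higher and 3 lower in every fit, and 4 to 6 pathway genes higher and 0 lower, while 7.28% to 9.41% of all genes were called; 8 of the 10 calls were kept in all 12 fits. Without EtOH 2, Col8a2 was called as well, and without EtOH 1 or EtOH 3 so was Col26a1 (0.53 and 0.57). Without the 3 ethanol-administered mice richest in Ttr, 1 pathway gene was higher, while 5.2% of all genes were called.

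With the replicate block, 6 members were higher and 3 lower, while 8.24% of all genes were called. Col4a5 was lost (0.50, edgeR adjusted p = 0.0753). Nothing in the labels pairs the mice, and the correlations of same-numbered mice ran from -0.11 to 0.02, with no mouse closest to its own number. Dividing by the longest transcript in place of all exons gave 8.01 CPM per kb for Col4a1 and 7.21 for Col25a1. Depth limits the members under 1 CPM, 7 in number. For 27 members, 4 of them called, exons overlap another gene of the Gencode M39 annotation. Of counts between 2 and 50 in the table, 75.1% were even, for a reason that was not tested.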

Other observations

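Several collagen genes lie side by side in the genome, and the values of neighbours are given without a test. Col4a1 with Col4a2, Col4a3 with Col4a4 and Col4a5 with Col4a6 stand head to head. Their log2 fold changes were 0.18 and -0.02, 0.19 and 0.56, and 0.51 and -0.09, of which only that of Col4a5 was called. Col5a2, called higher, lies tail to tail with Col3a1 at a distance of 16713 bp, and Col3a1 had a log2 fold change of 0.05. Col19a1, also higher, ends 5006 bp from the end of Col9a1, which had -0.47 (edgeR adjusted p = 0.353). Col6a1 and Col6a2 lie on the same strand, 83890 bp apart, and had -0.94 and -0.09. The cluster of Col6a4, Col6a5 and Col6a6 had -0.04, -0.08 and -0.03.

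Among partners of collagen in the basement membrane, 4 of 13 had an adjusted p under 0.05 (30.8%, against 23.7% of all genes, a share near the background). These were Lama4, which was called higher, and, with smaller positive folds, Agrn, Lamc1 and Sparc (log2 fold changes of 0.33, 0.19 and 0.27). P4hb, a subunit of the main collagen prolyl hydroxylase, was the pathway gene with a negative value and an adjusted p under 0.05 (-0.28, edgeR adjusted p = 0.000746), and every ethanol-administered mouse lay below the lowest control. These 4 genes with smaller folds were picked for naming with their values known.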
